A study of Oryza longistaminata with 15 samples.

Results

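The rhizome tip was compared with the shoot tip of Oryza longistaminata, a wild rice that spreads by underground stems called rhizomes, on the 6 arrays that carry these tissue labels. They are 6 of 15 arrays in all, 3 labelled rhizome tip (RT) and 3 labelled shoot tip (ST), and they were chosen by label alone. An RT sample was the distal 1 cm of a young rhizome, and an ST sample was the distal 5 mm of a tiller with all leaves removed. All plants were wild type, grown in a greenhouse and sampled at the active tillering stage. The other arrays, 3 each of rhizome internodes (RI), shoot internodes (SI) and young leaves (YL), serve here as side values that the tip comparison did not use. The sample records speak of individual plants while the methods speak of 1 plant kept in the greenhouse, so p-values measure the spread between samples that may share a genotype and a plant.

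A rhizome and a tiller both grow from axillary buds of the same plant, and each ends in an apical meristem, the group of dividing cells that lays down stem and leaf primordia. A tiller turns upward and opens green leaves, whereas a rhizome grows sideways in the soil under scale leaves. Regulators of meristem fate (KNOX homeobox, CEN-like and MADS-box genes), of organ polarity (YABBY and AS2 genes), of bud and leaf growth (TCP and SBP genes) and of auxin and gibberellin action are the classes usually examined in such tips.

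The names of the tips must be read with care. The study's own list of tip genes holds 424 probe sets, and it heads its ratios as rhizome tip over shoot tip. On the arrays as labelled, all 424 lie on the opposite side of 1, so those tables name the tip groups the other way round. The summed signal of the 71 tested photosynthesis probe sets was 30702 to 33738 in the RT-labelled tips and 7432 to 8692 in the ST-labelled tips, against 275749 to 348988 in YL. In the internodes the same sum was 17086 to 34812 in RI and 129101 to 183927 in SI. The single root marker on the list, AGL12, is given below and did not differ beyond the test's threshold. Which naming holds was not tested. Throughout, "RT-labelled" and "ST-labelled" follow the sample records, and differences are RT-labelled minus ST-labelled.

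Values are linear signals of Affymetrix probe sets, scaled together over all arrays by the authors. A probe set is a group of short probes for 1 transcript, designed on cultivated rice. Signals were taken as detected above 49.6, which 95% of the readings of 64 reporter control probe sets (matching no rice gene) did not reach, and 19028 of 57194 rice probe sets exceeded it on at least 3 of the 6 tip arrays and were tested. Between 18221 and 18834 rice probe sets exceeded it on each tip array. A probe set was called at an adjusted p under 0.05 (limma, Benjamini-Hochberg over all 19028) with a change over 2-fold, and the variance came from these 6 arrays alone. RT-labelled replicate 2 stood apart, with correlations of 0.865 and 0.863 to the other RT-labelled arrays, which correlated at 0.934 with each other. Among the ST-labelled arrays the correlations were 0.881 to 0.948. In these bulk tissues, fewer cells of a type and less RNA per cell cannot be told apart.

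Between the tips, 209 probe sets were called, 1.10% of those tested. They comprised 142 with higher signal in the RT-labelled tips (0.746%) and 67 with lower signal there (0.352%). The 3 arrays of 1 tip all lay above the 3 of the other in 24.6% of the probe sets tested (RT-labelled above in 18.5%, below in 6.08%), so a lack of overlap by itself was common. The median difference over all probe sets tested was 0.10 on the log2 scale. Centring the arrays on their medians shifted it by -0.12 and split the calls into 113 higher and 93 lower, so that 54.9% of calls were higher in place of 67.9%. Of the 209 called probe sets, 180 are on the study's own list, which was drawn from these same arrays, so counts over annotated genes are no independent evidence of direction. Gene names come mainly from the study's tables, and 184 of the 404 tested probe sets on the gene lists used below stand in its tables of tip differences or of genes enriched in either tip.

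**Figure D1:**
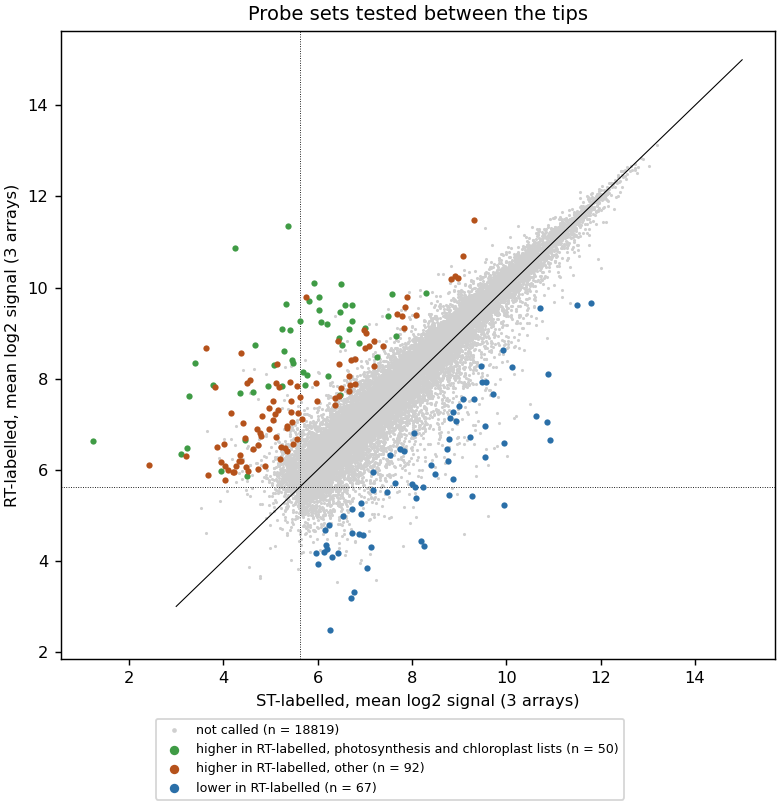
Mean log2 signal of the 19028 probe sets tested, RT-labelled tips on the vertical axis and ST-labelled tips on the horizontal axis (3 arrays each). Coloured points are the 142 probe sets called higher and the 67 called lower in the RT-labelled tips, the solid line marks equal signal and the dotted lines mark the detection cutoff of 49.6. Many of the points called higher lie left of the vertical dotted line, where the mean ST-labelled signal was under the cutoff.

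Each call rested on few arrays. Leaving out ST-labelled replicate 1, 2 or 3 left 39, 55 and 54 higher calls and 10, 9 and 17 lower ones. Without RT-labelled replicate 1 or 3 there were 44 and 60 higher calls and 16 and 28 lower ones, whereas without RT-labelled replicate 2 there were 150 and 96. With every array left out in turn, 34 of the 142 higher and 6 of the 67 lower probe sets were called each time, and all 209 kept their direction. In a fit over all 15 arrays, which takes its variance from the other tissues too, 125 higher and 38 lower probe sets were called, 98 and 26 of them among the 142 and the 67.

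Probe sets on the photosynthesis list made up 43 of the 142 called higher, and 7 more came from the list of other chloroplast proteins. Both lists rest on words in annotations and missed some members, as given below. In the photosynthesis list 43 of 71 tested members rose in the RT-labelled tips and none fell, with a list median of 2.28 on the log2 scale beside 0.10 for all probe sets tested. Among all probe sets tested, 0.746% were called higher. The study's table of tip differences, drawn from these same arrays, holds 42 of the 71. A chlorophyll a-b binding protein, Os01g41710, read 1998, 1759 and 1874 in the RT-labelled tips and 16.6, 20.1 and 20.8 in the ST-labelled tips. All ST-labelled readings were below the cutoff, so the change was at least 37.8-fold (adjusted p = 0.000176). The remaining 92 higher and all 67 lower probe sets lie outside both lists and are described next.

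Several regulators of development rose in the RT-labelled tips, led by the MADS-box gene APETALA1 (Os03g54160), whose relative in Arabidopsis specifies floral meristems. It gave 209, 305 and 245 in the RT-labelled tips and 21.6, 42.3 and 14.5 in the ST-labelled tips, a rise of at least 5.04-fold (log2 difference 3.40 ± 0.41, SE; adjusted p = 0.0256). All ST-labelled arrays were under the cutoff, so the filter for testing itself required all 3 RT-labelled arrays to exceed it. That split is therefore no evidence, and the same holds for every change given as "at least N-fold". A further probe set placed on this gene through its shared gene symbol did not follow, at -0.38 on the log2 scale (adjusted p = 0.738). FL (Os04g51000), a transcription factor of the FLORICAULA/LEAFY type, read 140.4, 90.8 and 131 in the RT-labelled tips and 30.7, 35.3 and 28 in the ST-labelled tips, at least 2.39-fold higher (adjusted p = 0.0219). It was under the cutoff in all 3 groups of RI, SI and YL, where it averaged 13.9 ± 2.03, 16.1 ± 1.02 and 11.1 ± 3.29 (SD, n = 3 each).

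The SBP-domain gene 5 (Os08g39890), of a family that controls shoot branching and phase change, gave 389.7, 435 and 409.7 in the RT-labelled tips against 134, 95.4 and 163 in the ST-labelled tips (log2 difference 1.69 ± 0.23, adjusted p = 0.0351). The TCP gene Os03g57190, from a family of growth regulators, gave 408, 609 and 369.7 against 124, 173 and 149 and passed narrowly (log2 difference 1.62 ± 0.25, adjusted p = 0.05). Both were clear of the cutoff on every tip array, with no overlap between the tips (as in 24.6% of all probe sets tested). Both were low in young leaves, at 5.12 ± 1.45 and 35.5 ± 6.05 (SD, n = 3). The study lists both as enriched in the shoot tip on these same arrays, so this is no independent evidence. A YABBY gene, Os03g44710, whose Arabidopsis relatives mark the lower side of leaf primordia, read 703, 686 and 595 in the RT-labelled tips and 210.0, 214 and 236 in the ST-labelled tips (log2 difference 1.59 ± 0.15, adjusted p = 0.0111). The 6 readings were tight within each tip. A WRKY gene (Os02g43560) gave 844, 482 and 777 in the RT-labelled tips and 222, 188 and 206 in the ST-labelled tips (adjusted p = 0.0412).

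CONSTANS-type genes carry a B-box or CCT motif, and the founding member times flowering by day length in Arabidopsis. CONSTANS Os04g42020 read 209, 231 and 239 in the RT-labelled tips and 28.3, 54.7 and 30.5 in the ST-labelled tips (log2 difference 2.64 ± 0.28, adjusted p = 0.017). The CCT gene Os03g50310 read 160.0, 226 and 168 in the RT-labelled tips and 31.7, 28.6 and 40.4 in the ST-labelled tips, at least 3.68-fold higher (adjusted p = 0.00935). Of the 9 tested members of this class, 2 rose, 1 fell and 6 did not pass, and 8 of the 9 differences were positive. Over all probe sets tested, 60.6% of differences were positive, and 0.746% were called higher and 0.352% lower. The study's tables of tip differences or tip-enriched genes hold 5 of the 9, so this direction is no independent evidence. The member that fell was the B-box gene Os06g49880, with 32, 46.6 and 29.8 in the RT-labelled tips and 93, 107 and 118 in the ST-labelled tips (adjusted p = 0.0409). SHOOT1 (Os07g07540) was at least 1.62-fold higher in the RT-labelled tips (adjusted p = 0.026).

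Other genes that the study discusses for the tips did not pass in this 6-array fit. Their tips did not overlap, as in 24.6% of all probe sets tested. A no apical meristem gene (Os04g38720) gave 171, 169.8 and 153 in the RT-labelled tips and 26.4, 30.7 and 68.4 in the ST-labelled tips (adjusted p = 0.0719), with 1 ST-labelled array above the cutoff. The growth-regulating factor Os06g02560 had a log2 difference of 1.60 ± 0.47 (adjusted p = 0.196), and ST-labelled replicate 3, at 106.6, lay far under the other 2 arrays of its group, at 306 and 327. For AGL19 (Os10g39130), AS2 (Os01g66590), ARF8 (Os04g57610) and auxin efflux carrier 3 (Os11g04190) the log2 differences were 1.62, 1.23, 1.12 and 1.05, with adjusted p of 0.093, 0.0728, 0.0993 and 0.0835.

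None of the regulators called higher kept its call with every array left out. The highest adjusted p without 1 array was 0.129 for APETALA1, 0.129 for FL, 0.167 for the SBP gene, 0.230 for the TCP gene, 0.0985 for the YABBY gene, 0.178 for the WRKY gene, 0.0844 for CONSTANS, 0.0739 for Os03g50310 and 0.120 for SHOOT1, each without ST-labelled replicate 1. For Os06g49880 it was 0.155, without RT-labelled replicate 1. The calls of the SBP, TCP and WRKY genes were also lost under other scalings, with adjusted p of 0.0745, 0.0693 and 0.0581 after quantile normalization and 0.0722, 0.0715 and 0.0561 after median centring.

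**Figure D2:**
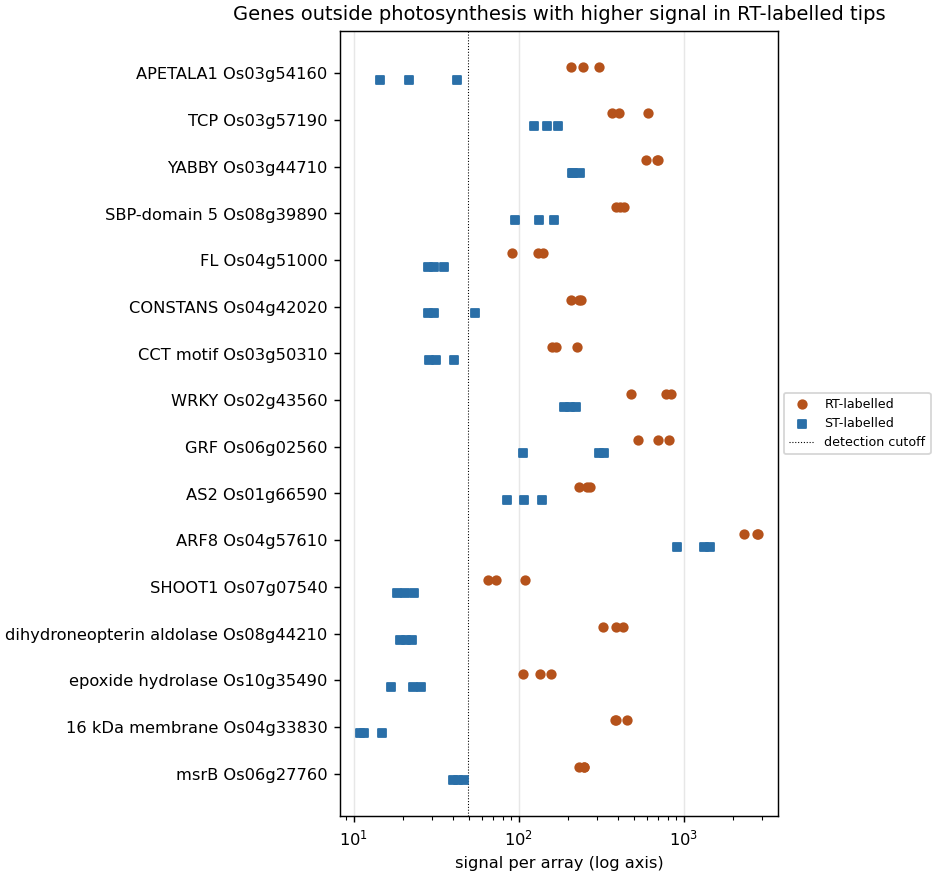
Signal on each array (log axis) for 16 genes outside the photosynthesis and chloroplast lists with higher signal in the RT-labelled tips. Circles are the 3 RT-labelled arrays and squares below them the 3 ST-labelled arrays. The dotted line is the detection cutoff of 49.6. The tips do not overlap in any of the 16 genes, of which GRF, AS2 and ARF8 did not pass the test. A lack of overlap was found in 24.6% of all probe sets tested, and most of these genes were chosen for their calls on these same arrays.

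The following genes were taken for the size of their change and form no list. They lie outside the photosynthesis and chloroplast lists, which rest on words in annotations, so some may still act in photosynthesis. Dihydroneopterin aldolase (Os08g44210), an enzyme of folate synthesis, read 323, 389 and 427 in the RT-labelled tips and 19.1, 22.7 and 20.7 in the ST-labelled tips, at least 7.61-fold higher (adjusted p = 0.000754). A 16 kDa membrane protein (Os04g33830) read 454, 389 and 385 in the RT-labelled tips and 11.6, 10.9 and 14.8 in the ST-labelled tips, at least 8.23-fold higher (adjusted p = 0.000491). For both genes every ST-labelled array lay under the cutoff. They parted in the other tissues. The membrane protein was far higher in YL, at 4165 ± 641, and in SI, at 2506 ± 363, than in RI, at 74.8 ± 39.9. Its annotation does not settle whether it acts in photosynthesis. The aldolase averaged 143 ± 28.3 in YL, 213 ± 154 in RI and 136 ± 108 in SI. An epoxide hydrolase (Os10g35490) was at least 2.64-fold higher in the RT-labelled tips, with 134, 106 and 157 against 16.9, 22.9 and 25.5 in the ST-labelled tips (adjusted p = 0.00955). It averaged 8.62 ± 0.349 in RI, 13.3 ± 2.13 in SI and 9.48 ± 3.36 in YL, all below the cutoff.

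A pentatricopeptide protein (Os02g46980), of a family that processes organelle RNA, was at least 4.84-fold higher, a Plus-3 domain protein (Os01g56780) at least 4.56-fold and a rhodanese-like protein (Os09g10750) at least 4.81-fold. The methionine sulfoxide reductase msrB (Os06g27760), which repairs oxidised methionine, was at least 4.91-fold higher in the RT-labelled tips. A second probe set placed on msrB was too dim to be tested. It read 40.2, 42.8 and 31.7 in the RT-labelled tips and 32.9, 33.5 and 34.7 in the ST-labelled tips. An AMP-binding enzyme (Os12g07110), a cytochrome P450 of type 89A2 (Os08g05620) and a sigma-70 factor (Os08g14450) rose by at least 1.83-fold, 3.05-fold and 1.58-fold. In this last gene RT-labelled replicate 2 read 153.6, well above the other RT-labelled arrays at 55.5 and 56.4. A class II heat shock protein of 17.5 kDa (Os01g08860) read 2689.7, 2347 and 3671 in the RT-labelled tips and 552, 807 and 574 in the ST-labelled tips (adjusted p = 0.0219), but other probe sets placed on the same gene differed by 0.46 and -0.84 on the log2 scale and did not pass. Of the 23 tested heat shock and chaperone probe sets, it was the single call, beside 0.746% of all probe sets tested called higher.

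Several of these genes stayed called with any 1 array left out: Os08g44210, Os04g33830, Os02g46980, Os01g56780, Os09g10750 and Os06g27760, with adjusted p of at most 0.0477. The call of Os10g35490 was lost without RT-labelled replicate 1 and ST-labelled replicates 1 and 2 (adjusted p up to 0.0686). Os12g07110, Os08g05620, Os08g14450 and Os01g08860 reached 0.129, 0.129, 0.184 and 0.124 without ST-labelled replicate 1.

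The 92 probe sets called higher outside both lists included several whose annotations name plastid functions although the words used to build the lists missed them. Examples are a GUN4-like protein (Os11g16550, log2 difference 2.24 ± 0.30), a calcium sensing receptor (Os02g49680, 2.28 ± 0.30) and a subunit of ferredoxin-thioredoxin reductase (Os02g42570, 1.60 ± 0.21), which were named after their values were seen. Os07g37240 (3.19 ± 0.18) is annotated only as an expressed protein in the study's list of tip genes. Elsewhere the study names it a chlorophyll a/b-binding protein, so the 92 still hold photosynthesis genes. Of the 92, 54 had their highest mean of the 5 tissues in YL (58.7%, beside 27.5% of all probe sets tested) and 32 in the RT-labelled tips (34.8%, beside 31%). The 31% also covers probe sets lower in the RT-labelled tips, which cannot peak there, so it is too low a base for the 92. Of all probe sets tested, 5893 peaked in the RT-labelled tips, while 11524 had a positive tip difference. The part of leaf-type expression in these calls was not tested.

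Genes of DNA replication and the cell cycle mark dividing cells. Of 23 tested probe sets none passed in either direction, while 22 of the differences were positive, with a median of 0.68 on the log2 scale beside 0.10 for all probe sets tested. However, 16 of the 23 take their names from the list of genes that the study called enriched in the shoot tip, on these same arrays and with the tips named the other way round, so their direction was fixed by that choice and is no finding. Of the 7 others, 6 differences were positive, with a median of 0.33. The summed signal of all 23 was 6713 to 7215 in the RT-labelled tips, 4113 to 4463 in the ST-labelled tips and 1904 to 2408 in YL.

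Among the genes lower in the RT-labelled tips, regulators of the CEN and TCP families were called. CEN-like proteins are relatives of FT and TFL1, and in Antirrhinum and Arabidopsis such genes keep shoot meristems growing without end. CEN-like protein 2 (Os04g33570) read 80.6, 45.1 and 22.3 in the RT-labelled tips and 437, 458 and 420.1 in the ST-labelled tips (log2 difference -3.34 ± 0.45, adjusted p = 0.0351). The ST-labelled readings were nearly equal, and 2 of the 3 RT-labelled readings were below the cutoff. The gene averaged 47.3 ± 10.3 in RI, 19.4 ± 13.6 in SI and 9.62 ± 2.75 in YL, so its mean was highest in the ST-labelled tips among the 5 tissues. A second gene of the family (Os11g05470), annotated as CEN-like protein 2 or 3, gave 68.8, 19.7 and 51.4 in the RT-labelled tips and 145, 129 and 167 in the ST-labelled tips and did not pass (adjusted p = 0.158).

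The TCP gene Os03g49880 read 34.8, 75.3 and 46.6 in the RT-labelled tips and 233, 306 and 263 in the ST-labelled tips (log2 difference -2.42 ± 0.31, adjusted p = 0.0295). It was thus lower where the other TCP gene, Os03g57190, was higher. In the YABBY family, Os07g06620 gave 127, 221 and 96.7 in the RT-labelled tips and 424, 639 and 564 in the ST-labelled tips without passing (log2 difference -1.94 ± 0.34, adjusted p = 0.0728), whereas Os03g44710 passed in the other direction. Of the meristem genes of the KNOX class none of 4 tested probe sets passed. OSH1 (Os03g51690), which marks cells of the shoot meristem, read 1368, 992 and 1277 in the RT-labelled tips and 2029.8, 1749 and 1783 in the ST-labelled tips (log2 difference -0.62 ± 0.18, adjusted p = 0.197). AGL12 (Os08g02070), expressed mainly in roots in Arabidopsis, read 86.9, 54 and 119 in the RT-labelled tips and 196, 165 and 145 in the ST-labelled tips (adjusted p = 0.214). In both genes the tips did not overlap, as in 24.6% of all probe sets tested, but the difference did not pass.

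Further transcription factors fell in the RT-labelled tips. A bHLH gene, Os06g10820, gave 25.6, 16.3 and 18.3 in the RT-labelled tips, each under the cutoff, and read 109, 113 and 226 in the ST-labelled tips, at least 2.84-fold lower (adjusted p = 0.026). The bHLH gene GBOF-1 (Os02g39140) gave 93.8, 62 and 56.7 in the RT-labelled tips and 264, 504 and 289.5 in the ST-labelled tips (adjusted p = 0.041). RAV1 (Os05g47650), a DNA-binding protein, gave 63.8, 46.5 and 40.3 in the RT-labelled tips and 318, 250.4 and 346 in the ST-labelled tips (log2 difference -2.62 ± 0.23, adjusted p = 0.00954). No array of 1 tip reached the range of the other in these genes, which were chosen for their calls on these same arrays. Of 11 tested AP2 domain probe sets 2 fell, none rose and 9 did not pass, with a median of -1.88. Among all probe sets tested, 0.352% were called lower and 0.746% higher. The study's tables of tip differences or tip-enriched genes hold 7 of the 11, so the direction of this list is no independent evidence. The AP2 gene Os05g29810 read 1003, 523 and 916 in the RT-labelled tips and 3017, 2721 and 2904 in the ST-labelled tips (adjusted p = 0.0432), and the other call was Os01g10370 (log2 difference -2.28 ± 0.32, adjusted p = 0.0408). Further probe sets placed on Os01g10370 differed by -1.07 and -1.29 and did not pass (adjusted p = 0.134 and 0.0938). Of 9 tested bHLH probe sets 2 fell, and 4 after quantile normalization or median centring. Neither of the 2 homeobox probe sets outside the KNOX class passed (median -2.01), but both were called lower after quantile normalization or median centring. No call was made among the 8 NAC, 7 bZIP or 18 MYB probe sets.

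Few hormone genes passed the test. An AUX/IAA gene (Os03g43410), a repressor of auxin responses, gave 102, 67.1 and 99.9 in the RT-labelled tips and 619, 429.5 and 289 in the ST-labelled tips (log2 difference -2.27 ± 0.33, adjusted p = 0.0427), with a wide spread among the ST-labelled arrays. Neither of 2 auxin response factors and none of 3 auxin efflux carriers passed. None of 5 gibberellin probe sets and none of 4 cytokinin probe sets passed either. A gibberellin 2-beta-dioxygenase (Os01g55240), which inactivates gibberellins, read 81.9, 161 and 63.9 in the RT-labelled tips and 405, 918 and 442 in the ST-labelled tips (adjusted p = 0.0769). Each tip had its highest reading in replicate 2. The gibberellin regulated gene Os06g51320 had a log2 difference of -1.20 ± 0.23 (adjusted p = 0.0922).

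These regulators also depended on single arrays: without ST-labelled replicate 1 the adjusted p was 0.161 for CEN-like protein 2, 0.129 for the TCP gene Os03g49880, 0.0739 for RAV1, 0.208 for Os05g29810 and 0.187 for Os01g10370. It reached 0.110 for Os06g10820 and 0.142 for GBOF-1 without RT-labelled replicate 3, and 0.156 for the AUX/IAA gene without ST-labelled replicate 2.

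Some proteins of the cell surface and wall were lower in the RT-labelled tips. Lipid transfer proteins are small secreted proteins that bind lipids and are abundant in epidermis. Of 14 tested probe sets 3 fell, none rose and 11 did not pass, with a median of -1.37 on the log2 scale. Over all probe sets tested, 0.352% were called lower. The study's tables of tip differences or tip-enriched genes, drawn from these same arrays, hold 12 of the 14. The direction of this list was thus largely fixed by that choice and is no finding. Lipid-transfer protein 4 (Os11g02350) read 754, 997 and 701 in the RT-labelled tips and 3526, 3037 and 4265 in the ST-labelled tips (log2 difference -2.15 ± 0.21, adjusted p = 0.0136). Lipid-transfer protein 3 (Os12g02340) read 59.5, 79.7 and 98.2 and lipid-transfer protein 5 (Os12g02290) 164, 172 and 172 in the RT-labelled tips, against 375, 1288 and 852 and 413, 488 and 662 in the ST-labelled tips (adjusted p = 0.0432 and 0.0315). All 3 genes were lower on every RT-labelled array, as were 6.08% of all probe sets tested. A second probe set placed on Os12g02340 read 3587 to 4267 in the RT-labelled tips and 3702 to 3901 in the ST-labelled tips, with a log2 difference of 0.03, so the probe sets of that gene disagree. Of the 4 other lipid transfer genes that the study names for the tips, Os12g02330, Os07g07930, Os07g09970 and Os05g40010, none passed (log2 differences -2.73, -1.04, -1.53 and -1.50).

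Proline-rich proteins, structural parts of the wall, had a median of -3.27 on the log2 scale, and yet none of their 7 tested probe sets passed. The study's tables of tip differences or tip-enriched genes hold 6 of the 7, so the sign of this median is no finding. Os10g05990 read 10.4, 71.3 and 18.9 in the RT-labelled tips and 409.5, 455 and 892 in the ST-labelled tips (log2 difference -4.51 ± 0.73, adjusted p = 0.0586). RT-labelled replicate 2 was the highest of its group here, as it was in Os10g05970, with 31.2, 256 and 88.4 against 665, 723 and 1324 in the ST-labelled tips, and in Os10g06000. The adjusted p was 0.134 for Os10g05970, 0.0963 for Os10g06000, 0.139 for Os10g05980 and 0.0946 for Os10g05750. Without RT-labelled replicate 2, Os10g05990 and Os10g06000 passed, with adjusted p of 0.0201 and 0.0275. After median centring Os10g05990 passed too (adjusted p = 0.0453). These genes are near copies whose probe sets may share signal.

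Class III peroxidases, secreted enzymes that cross-link walls, gave 2 lower calls among 9 tested probe sets, no higher call and a median of -1.38. Among all probe sets tested, 0.352% were called lower and 0.746% higher. After quantile normalization or median centring 4 were called lower. The study's tables of tip differences or tip-enriched genes hold 6 of the 9, so the direction of this list is no independent evidence. Peroxidase 12 (Os04g59150) read 113, 256 and 104 in the RT-labelled tips and 1355, 2383 and 1227 in the ST-labelled tips (log2 difference -3.45 ± 0.43, adjusted p = 0.0283), and peroxidase 21 (Os07g49360) differed by -1.68 ± 0.23 (adjusted p = 0.0358). Of 10 tested probe sets for cuticle and very-long-chain lipids, 2 fell, a GDSL lipase (Os05g44200, at least 2.42-fold lower) and a beta-ketoacyl-CoA synthase (Os10g33370, log2 difference -1.23 ± 0.19), none rose and 8 did not pass. The same study tables hold 8 of the 10. A protein with a cellulase domain (Os10g22520) was tight on all arrays, with 140.2, 124 and 114 in the RT-labelled tips and 701, 839.9 and 720.0 in the ST-labelled tips (log2 difference -2.58 ± 0.16, adjusted p = 0.00303). Its call held with any array left out, at an adjusted p of at most 0.0338. A second probe set placed on this gene was too dim to be tested and did not follow. It read 46.2, 59.3 and 35.9 in the RT-labelled tips and 14.7, 18.7 and 39.0 in the ST-labelled tips. Alpha-expansin 10 (Os03g21820), which loosens walls, had a log2 difference of -1.11 ± 0.25 and did not pass (adjusted p = 0.122).

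Some protease inhibitors and a wound-related gene were also lower in the RT-labelled tips. The gene annotated MPI (Os12g36220) read 173, 51 and 115 in the RT-labelled tips and 1715, 3221 and 1341 in the ST-labelled tips (log2 difference -4.28 ± 0.53, adjusted p = 0.0281). A Bowman-Birk trypsin inhibitor (Os01g03360) gave 375, 206 and 263 in the RT-labelled tips and 1285, 2960.3 and 1786 in the ST-labelled tips (adjusted p = 0.0328), and its neighbour in name, Os01g03340, differed by -1.87 ± 0.28 (adjusted p = 0.0449). These were the 2 calls among 8 tested thionin and protease inhibitor probe sets, beside 0.352% of all probe sets tested called lower. The study's tables of tip differences or tip-enriched genes hold 7 of the 8. A wound induced protein (Os04g54300) was under the cutoff on all RT-labelled arrays, with 46.8, 11.8 and 14.7, and read 215, 496 and 269 in the ST-labelled tips, at least 6.17-fold lower (adjusted p = 0.0467). The tips did not overlap in any of these genes, as in 24.6% of all probe sets tested, and the genes were chosen on these same arrays.

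Smaller groups completed the lower set. Both probe sets of a tonoplast water channel, aquaporin RB7-5A (Os02g44080), fell, with 29, 22.2 and 22.7 in the RT-labelled tips and 129.7, 117 and 79.1 in the ST-labelled tips for the one with the smaller p (adjusted p = 0.0219). A haemolysin-III related protein (Os06g44250) and a calcium-binding EF hand protein (Os05g31620) differed by -2.70 ± 0.25 and -2.50 ± 0.37 on the log2 scale (adjusted p = 0.0104 and 0.0449). The genes annotated meiosis 5 had large but uneven differences: Os06g35970 read 119.8, 367 and 121 in the RT-labelled tips and 729.6, 2318 and 1839 in the ST-labelled tips (adjusted p = 0.097), and Os02g13660 read 46.9, 161 and 64 in the RT-labelled tips and 452, 2209 and 1129 in the ST-labelled tips (adjusted p = 0.0843). The largest fall of all was in Os01g12110, an expressed protein of unnamed function chosen after its values were seen, with 51, 23.6 and 43.9 in the RT-labelled tips and 721, 1087 and 1227 in the ST-labelled tips (log2 difference -4.72 ± 0.36, adjusted p = 0.00547).

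Without ST-labelled replicate 1 the adjusted p rose to 0.0908 for lipid-transfer protein 4, 0.176 for peroxidase 21, 0.139 for the GDSL lipase, 0.149 for Os01g03340, 0.129 for MPI, 0.115 for the aquaporin and 0.189 for the EF hand protein. The haemolysin-III related protein reached 0.0709, also without ST-labelled replicate 1. Without RT-labelled replicate 1 the adjusted p was 0.162 for lipid-transfer protein 3, 0.134 for lipid-transfer protein 5, 0.133 for peroxidase 12 and 0.163 for the beta-ketoacyl-CoA synthase, and without RT-labelled replicate 3 it was 0.125 for Os01g03360 and 0.160 for the wound induced protein.

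**Figure D3:**
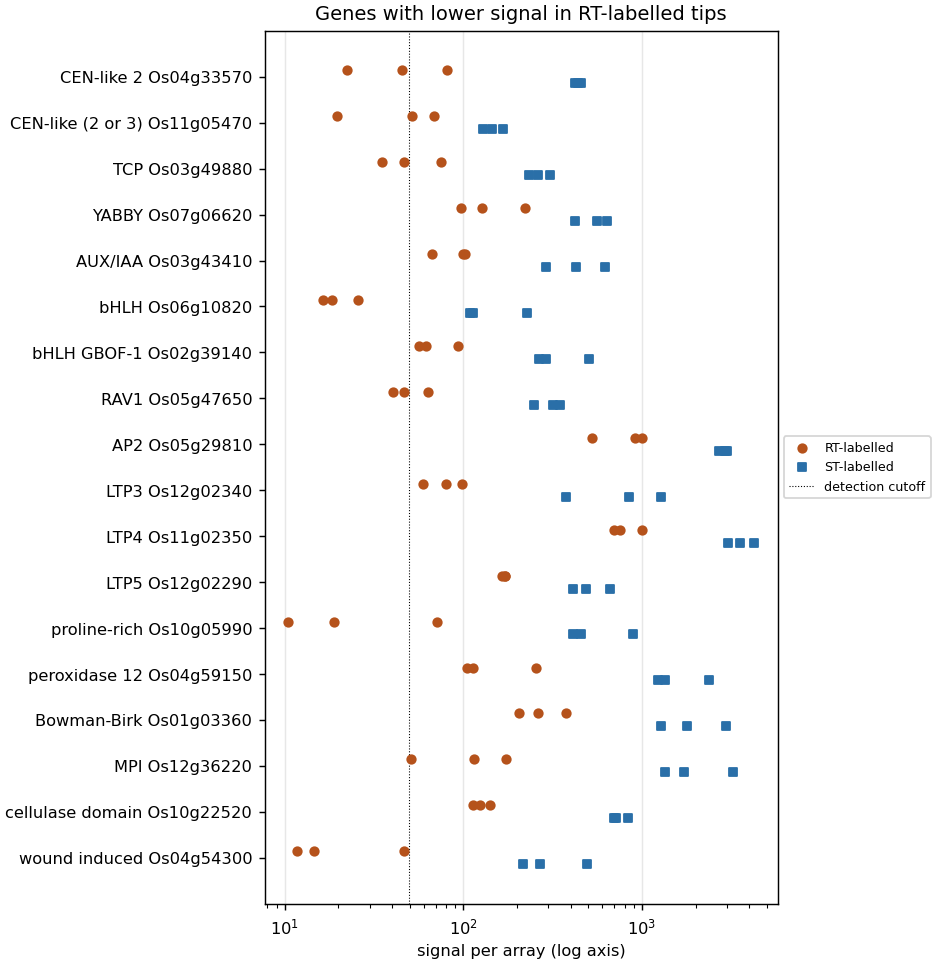
Signal on each array (log axis) for 18 genes with lower signal in the RT-labelled tips, as circles for the 3 RT-labelled arrays and squares below them for the 3 ST-labelled arrays, with the detection cutoff of 49.6 dotted. The tips do not overlap in any of the 18 genes, of which CEN-like Os11g05470, YABBY Os07g06620 and proline-rich Os10g05990 did not pass the test. A lack of overlap was found in 24.6% of all probe sets tested, and most of these genes were chosen for their calls on these same arrays.

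**Figure D4:**
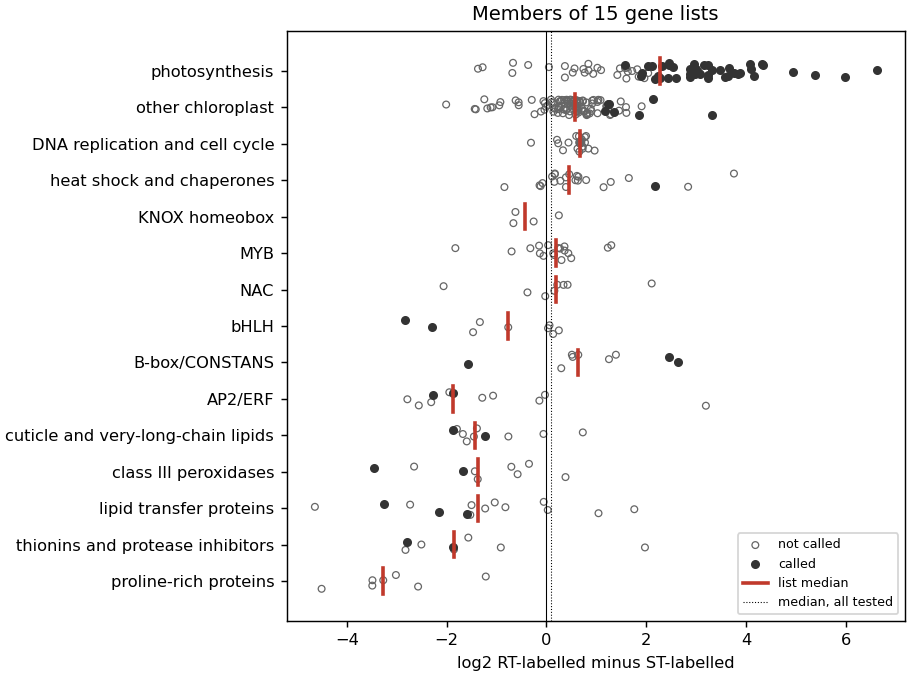
Log2 difference, RT-labelled minus ST-labelled, of every tested probe set of 15 gene lists, filled where called and open where not. Red bars are list medians and the dotted line is the median of all probe sets tested, 0.10. Photosynthesis lies farthest to the right, with a median of 2.28, and proline-rich proteins farthest to the left, at -3.27. Members taken from the study's tables of tip differences or tip-enriched genes were chosen on these same arrays. The direction of a list is therefore no independent evidence.

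The other tissues gave values that the tip comparison did not use. Of the 67 probe sets lower in the RT-labelled tips, 31 were under the cutoff on all YL arrays (46.3%, beside 3046 of all 19028 probe sets tested), and 32 had their highest mean of the 5 tissues in the ST-labelled tips (47.8%, beside 12.4%). The tip comparison itself kept any of the 67 from peaking in the RT-labelled tips and any of the 142 from peaking in the ST-labelled tips. The 12.4% also covers probe sets higher in the RT-labelled tips, which cannot peak in the ST-labelled tips. It is therefore too low a base for the 67, and part of the contrast between 47.8% and 12.4% was built in. An excess beyond that part was not tested. Of the 142 higher ones, 100 had their highest mean in YL (70.4%, beside 27.5% of all probe sets tested). Of the 92 outside the photosynthesis and chloroplast lists, 21 were under the cutoff on all YL arrays (22.8%, beside 16% of all probe sets tested). That small set held FL, the SBP gene Os08g39890 and the epoxide hydrolase described above, all below the cutoff in leaves. The study lists each of them as enriched in the shoot tip on these same arrays, so their low leaf signal is no independent evidence.

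The internodes repeat the contrast of rhizome with shoot in stem tissue on separate arrays. Between RI-labelled and SI-labelled internodes 117 of 21557 probe sets were called (0.543%), 19 higher (0.0881%) and 98 lower in RI (0.455%). Of the 142 probe sets higher in the RT-labelled tips, 131 were lower in RI (92.3%, beside 58.1% of all tip-tested probe sets), 43 of them called, and none was called higher in RI. Of the 67 lower in the RT-labelled tips, 54 were higher in RI (80.6%, beside 41.9%), 3 of them called, and none was called lower in RI. Outside the photosynthesis and chloroplast lists the share was 82 of 92 (89.1%), with 18 called lower in RI. Over the 209 called probe sets the tip and internode differences correlated at r = -0.78 (Spearman -0.80), and over all 19028 at r = -0.38 (Spearman -0.24). These are descriptions across probe sets, which are not independent replicates, and the called set shares many leaf-type genes. Each tip difference follows the sample records. With the tips named as in the study's tables, the signs of these correlations would be the opposite, and which naming holds was not tested.

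**Figure D5:**
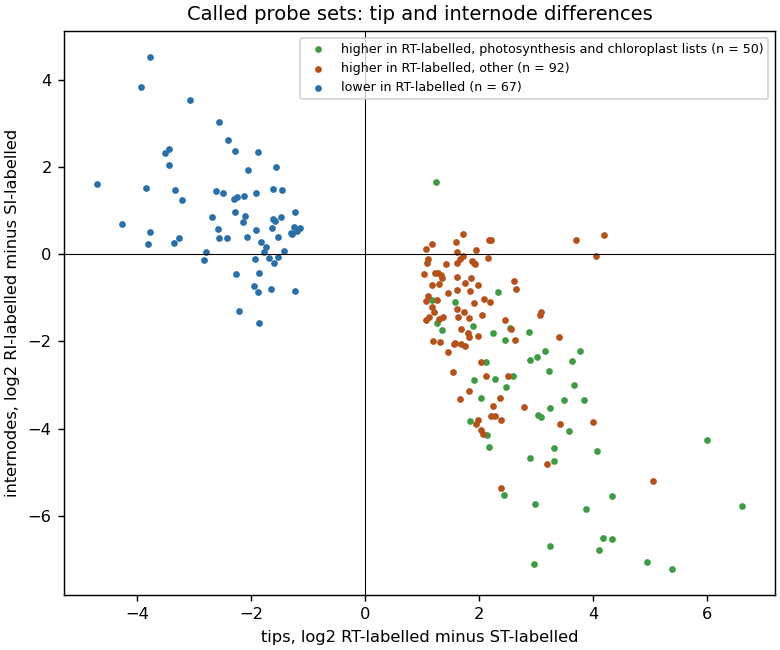
Log2 difference between the tips (RT-labelled minus ST-labelled, horizontal) and between the internodes (RI-labelled minus SI-labelled, vertical) for the 209 called probe sets. Most points lie in the upper left and lower right: 131 of 142 probe sets higher in the RT-labelled tips were lower in RI, and 54 of 67 lower ones were higher in RI. The signs follow the tip names of the sample records, which the study's tables reverse.

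The difference between the tip and internode contrasts was tested itself in a limma fit of the 12 arrays and passed for 473 of 21557 probe sets (2.19%), of which 109 were among the 142 called higher and 24 among the 67 called lower. That difference contains the tip difference on which the 142 and the 67 were chosen. A high share among them was therefore built in and is no evidence of a reversal. As labelled, the tip and internode differences of the wound induced protein Os04g54300 had opposite signs. It averaged 2296 ± 24 in RI and 165 ± 46.9 in SI. Its internode difference was 3.85 beside -3.93 between the tips (difference of differences -7.78, adjusted p = 0.000163). SHOOT1 also had opposite signs as labelled, with -3.80 between the internodes and 1.98 between the tips (adjusted p = 2.87e-05). With the tips named as in the study's tables, the tip and internode differences of each gene would have the same sign. Which naming holds was not tested. CEN-like protein 2 was low in both internodes, and its internode difference of 1.47 did not pass. For FL and the epoxide hydrolase the internode signals were all below the cutoff. Their internode differences were -0.22 and -0.61 beside 1.93 and 2.61 between the tips (difference of differences 2.15 and 3.22). The dihydroneopterin aldolase had an internode difference of 0.43 and a difference of contrasts that did not pass (adjusted p = 0.121). Without SI-labelled replicate 1 the count of 473 became 835, and without ST-labelled replicates 1 and 3 it was 306 and 310.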

How the data were processed

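RNA of each tissue was hybridised to the Affymetrix Rice Genome Array, with 5 µg of total RNA labelled per array. The authors read the arrays with GCOS 1.4 and scaled them globally with dChip, and the deposited values are linear signal intensities, 1 per probe set, without detection calls. Control probe sets (187 of 57381) were removed, values were raised to at least 1 before the log2 transformation. Probe sets above a signal of 49.6 on at least 3 of the 6 tip arrays were tested with limma 3.58.1 in R 4.3.3 (lmFit and eBayes), with Benjamini-Hochberg adjustment. Unadjusted p was under 0.05 for 2998 probe sets, and adjusted p was under 0.05 at any fold for 213. The permutation method named in the study was not rerun here. Where all arrays of the dimmer tip were under the cutoff, "at least N-fold" is the geometric mean of the brighter tip over the cutoff.

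Gene names come from the study's tables for 2663 probe sets and through a shared gene symbol of the platform annotation for 568 more. Probe sets may cross-hybridise between related genes. The members and lists were chosen with earlier results of these data known. Named genes were the 12 largest annotated changes in each direction outside the photosynthesis and chloroplast lists (1 probe set a gene), up to 4 calls per list, and tip genes named in the study's text. The labels give each group replicates 1 to 3, but same-numbered tip arrays did not deviate together, so no pairing was used. The method was tested on simulated data. The plots used Python 3.11.15 and matplotlib 3.10.9.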

Additional observations from a re-analysis of the deposited data

Results flagged for a closer look

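For 30 named probe sets the tip difference (RT-labelled minus ST-labelled) and the internode difference (RI-labelled minus SI-labelled) differed in a limma fit of the 12 arrays (adjusted p of 0.0406 or less). The values below are the tip difference minus the internode difference on the log2 scale. The tests share the arrays of the tip comparison from which most of these genes were chosen, and no cause was tested. The values depend on the tip names of the sample records, and which naming holds was not tested.

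Several were light-harvesting or other chloroplast genes. The chlorophyll a-b binding proteins reached 12.39 and 10.26 for the probe sets of Os01g41710 and 12.60 and 12.01 for those 2 of the 3 called probe sets of Os08g33820 that were named. Fructose-bisphosphate aldolase (Os11g07020) gave 7.77 and 6.27, ascorbate peroxidase (Os04g51300) 5.66 and the FKBP-type isomerase (Os08g42850) 3.10. Each was higher in the RT-labelled tips and lower in RI.

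Outside those lists, the 16 kDa membrane protein (Os04g33830) gave 10.24, the Plus-3 protein (Os01g56780) 7.84, the pentatricopeptide protein (Os02g46980) 7.31 and the rhodanese-like protein (Os09g10750) 6.29. The AMP-binding enzyme (Os12g07110) gave 4.58, msrB (Os06g27760) 5.29 and the epoxide hydrolase (Os10g35490) 3.22. Among regulators, APETALA1 (Os03g54160) gave 5.30, SHOOT1 (Os07g07540) 5.77, Os03g50310 3.96, the SBP gene (Os08g39890) 3.40, the WRKY gene (Os02g43560) 3.07, the TCP gene Os03g57190 2.44, ARF8 (Os04g57610) 2.43 and FL (Os04g51000) 2.15.

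With the opposite sign, the wound induced protein (Os04g54300) gave -7.78, CEN-like protein 2 (Os04g33570) -4.81, GBOF-1 (Os02g39140) -4.66, the EF hand protein (Os05g31620) -3.91, the cellulase domain protein (Os10g22520) -3.15, the bHLH gene Os06g10820 -2.70 and the lipid transfer gene Os05g40010 -1.66. The internode differences of Os06g10820 and Os05g40010 were only -0.14 and 0.16, and Os06g10820 was under the cutoff on every internode array. ARF8 and Os05g40010 were not called between the tips themselves.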

How the results depend on the processing

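All 209 called probe sets kept their direction in every alternative that tested them. The counts of calls stayed within 1.5 times the main counts after quantile normalization (129 higher, 88 lower), median centring, other detection cutoffs and filters, a floor at the cutoff, log2(signal + 16), eBayes with trend and robust hyperparameters, and without the fold minimum. A fit over all 15 arrays left 38 lower calls, all outside the photosynthesis and chloroplast lists, and the cause was not tested. Of the 53 named and called probe sets, 17 kept their call in every one of these alternatives. Leaving out each array in turn gave 39 to 150 higher and 9 to 96 lower calls between the tips, and outside those lists 13 to 107 higher and 9 to 96 lower. In the same way there were 4 to 25 higher and 28 to 112 lower calls in RI, and the difference of contrasts was called for 306 to 835 probe sets.

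With the replicate number as a block, 7 higher and 0 lower calls remained between the tips, 2 and 0 outside the lists, with 2 fewer residual degrees of freedom. The deviations of same-numbered tip arrays correlated at -0.11, -0.15 and -0.41, which gave no ground for pairing. Deviations from means of 3 arrays cannot show whether samples share a plant or a batch. The precision is limited by 3 arrays a group, and signals near the cutoff of 49.6 are the least certain.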
